A study of Mus musculus with 14 samples.

Results

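The genes described here mark the glomerulus, the filtering unit of the kidney. They are Nphs1, Podxl, Synpo, Wt1, Ptpro, Magi2 and Kirrel, known from podocytes, and Emcn and Ehd3, known from glomerular endothelium. They were taken by gene symbol, are 9 of the 22263 genes in the kidney and liver count tables, and all 9 were found in both tables. RNA-seq was made from liver and kidney of adult male mice, 12 weeks old, kept on a normal diet or given high salt. The genotype label of every animal is Hap -6A, a transgene holding the human angiotensinogen gene, and no animals without it were used here. The labels do not give the strain, the salt dose or its duration. Kidney had 3 libraries and liver 4 libraries per diet, 14 in all. Kidney libraries and normal diet liver libraries are called by the replicate numbers of their titles, and the high salt liver libraries by their column names HS5 to HS8, which match no title number. Nothing in the labels says whether replicates came from separate animals, so p-values measure the spread between these samples, which may be technical.

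Podocytes wrap the glomerular capillaries with foot processes, and the gaps between the processes are bridged by the slit diaphragm. Nephrin, encoded by Nphs1, and its relative NEPH1, encoded by Kirrel, form that bridge, and scaffold and actin-binding proteins hold it to the cytoskeleton. The capillary wall beneath them is a fenestrated endothelium. Most kidney RNA comes from tubules, so these genes are commonly read as a measure of how much glomerulus a piece of kidney holds. In whole-tissue RNA, fewer cells of a type and less RNA per cell cannot be told apart.

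Gene counts summed to 16046094 to 22004927 per kidney library and 37267778 to 51487382 per liver library, of which mitochondrial transcripts took 23.5% to 41.2% in kidney and 2.06% to 29.6% in liver. The tissue labels held in the summed levels of marker genes. Markers of proximal tubule summed to 27742 to 62276 CPM (counts scaled to a library total of 1000000, with TMM factors within each tissue) in kidney, and hepatocyte markers to 42658 to 100219 CPM in liver. Some libraries stood apart by transcript length. In normal diet kidney library 1, genes with the shortest 20% of transcripts lay at a median of -0.51 on the log2 scale from their mean over the kidney libraries, and those with the longest 20% at 0.33. Across the other 5 kidney libraries these medians ran from -0.25 to 0.32 and from -0.12 to 0.12. In liver, normal diet libraries 1 and 2 had the opposite pattern, with 0.41 and 0.42 for the shortest 20% and -0.42 and -0.38 for the longest 20%. The part of these gradients in the results was tested only as far as an offset for length and GC content and the removal of each library allow.

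Nphs1 lies at chr7:30458315-30487223 (GRCm38, plus strand). In the kidney it was read at 10.3, 54.2 and 58.5 CPM in normal diet libraries 1 to 3 and at 21.3, 38.9 and 19.8 CPM in high salt libraries 1 to 3. Normal diet library 1 was the lowest of the 6 and the 2 other normal diet libraries the highest, so the diets overlapped. In the liver, which has no podocytes, it was read at 57.1, 57.8, 23.5 and 83.1 CPM on the normal diet and at 35.0, 44.4, 87.97 and 77.9 CPM in HS5 to HS8. The liver values were thus as high as those of kidney. Nphs1 was the only one of the 9 genes whose counts were not whole numbers: they lay more than 0.01 from a whole number in 6 of 6 kidney libraries and 7 of 8 liver libraries, where the other 8 genes did so in none.

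The annotation shows a stretch of Nphs1 that is shared with a ribosomal protein gene. Exon 1 of the retained-intron transcript Nphs1-204 (chr7:30484915-30486749) overlaps by 183 bases, on the other strand, the processed pseudogene Rps12-ps4 (chr7:30484701-30485097). All 397 bases of that pseudogene match the Rps12 transcript Rps12-208, with 0 mismatches and 2 gap bases. The following 151 bases at chr7:30484947-30485097, plus strand, are printed because a read lying wholly inside them matches both genes. They are identical to the reverse complement of part of the Rps12 messenger RNA, so no base is in capitals.
Nphs1-204: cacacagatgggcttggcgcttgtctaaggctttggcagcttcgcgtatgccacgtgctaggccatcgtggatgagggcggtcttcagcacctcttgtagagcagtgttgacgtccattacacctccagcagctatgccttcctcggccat
Rps12-208 reverse complement: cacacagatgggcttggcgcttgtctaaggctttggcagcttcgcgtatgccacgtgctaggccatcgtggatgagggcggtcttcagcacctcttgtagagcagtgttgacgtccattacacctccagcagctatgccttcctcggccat
GENCODE M21, the annotation used, names 26 genes after Rps12, a protein of the small ribosomal subunit, and 12 of them are in the kidney table and 7 in the liver table. Nphs1os, an antisense gene, also overlaps Nphs1 exons, and whether the counting used strand is not given in the sources used here.

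The Rps12 genes were high and low in much the same kidney libraries. Their summed level was 158.6, 779.1 and 645.8 CPM in the normal diet kidney libraries and 255.7, 490.6 and 163.8 CPM in the high salt ones, and the Nphs1 value was 6.49% to 12.1% of that sum. In liver the sum ran from 153.1 to 393.1 CPM, and the Nphs1 value was 11.8% to 31.3% of it. Over the 6 kidney libraries the Pearson correlation of log2 CPM of Nphs1 with the Rps12 sum was 0.95 (Spearman 0.94), and over the 8 liver libraries it was 0.75 (Spearman 0.86). It was 0.99 in kidney and 0.60 in liver with the mean of 77 (kidney) and 76 (liver) ribosomal protein genes, Rps12 among them. The likeness in kidney was thus not limited to Rps12, nor was it limited to Nphs1. With the Rps12 sum in kidney, Ptpro was at 0.72 (Spearman 0.94), Emcn at 0.80 (0.89) and Wt1 at 0.66 (0.66). The rest were negative there, down to -0.84 for Ehd3. In liver the other 8 genes ran from -0.49 for Ehd3 to 0.20 for Wt1. These correlations share libraries and depth and are given as descriptions. How much of the Nphs1 count came from Rps12 transcripts was not tested, and results are given below with and without Nphs1.

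**Figure D1:**
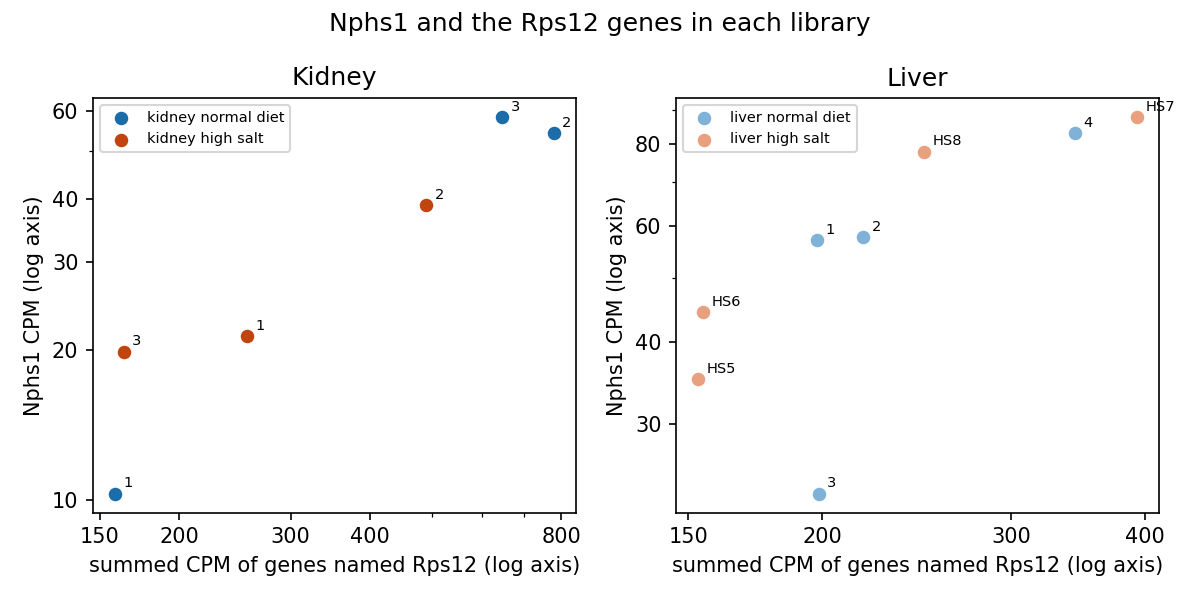
Nphs1 CPM against the summed CPM of the genes named after Rps12, 1 point per library, with both axes on a log scale, kidney left and liver right. The kidney points run from 10.3 CPM of Nphs1 at 158.6 CPM of Rps12 genes to 58.5 at 645.8, and liver library 3 of the normal diet lies below the other liver libraries.

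Kirrel (chr3:87078593-87174747, minus strand) encodes the slit diaphragm protein NEPH1. Its kidney level was 4.90, 3.75 and 4.50 CPM in normal diet libraries 1 to 3 and 5.58, 3.91 and 4.55 CPM in the high salt ones. The diets overlapped and the highest library was 1.49 times the lowest. In liver it was at 0.12, 0.41, 0.82 and 0.79 CPM on the normal diet and at 1.37, 1.57, 1.16 and 1.59 CPM in HS5 to HS8. Every high salt liver library was above every normal diet one, and normal diet libraries 1 and 2 were the lowest. Magi2 (chr5:19227036-20704792, plus strand) encodes a scaffold protein that binds nephrin. It varied least in kidney, at 5.30, 4.33 and 4.50 CPM in the normal diet libraries and 4.24, 4.47 and 4.50 CPM with high salt. Liver libraries held 0 to 8 counts of it. The noncoding gene Gm29254 overlaps exons of Magi2.

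Podxl (chr6:31519488-31563981, minus strand) encodes podocalyxin, the charged surface protein that keeps foot processes apart and that endothelial cells also carry. In kidney it was at 65.0, 61.1 and 52.9 CPM in the normal diet libraries and 74.0, 63.7 and 74.8 CPM with high salt. The lowest high salt library lay between normal diet libraries, so the diets overlapped. In liver Podxl was at 1.55, 1.61, 5.82 and 2.499 CPM on the normal diet and at 4.33, 3.98, 2.18 and 3.13 CPM in HS5 to HS8. Ptpro (chr6:137252319-137463233, plus strand) encodes the podocyte receptor tyrosine phosphatase GLEPP1. It was at 2.95, 8.26 and 7.84 CPM in the normal diet libraries and 6.57, 7.12 and 6.64 CPM with high salt in kidney. Library 1 of the normal diet was low and the other 5 close together. Liver libraries had 0.18 to 0.52 CPM of Ptpro.

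Synpo encodes synaptopodin, an actin-binding protein of foot processes. Its kidney values were 18.4, 16.5 and 14.6 CPM in the normal diet libraries and 19.6, 16.3 and 13.9 CPM with high salt, with full overlap of the diets. Liver values were 1.83 to 4.87 CPM. Wt1 (chr2:105126529-105173616, plus strand) encodes the transcription factor that podocytes keep from development and that mesothelium also carries. It was read from only 40 to 60 counts per kidney library, at 2.05, 2.34 and 2.90 CPM in the normal diet libraries and 2.59, 2.71 and 2.23 CPM with high salt. In liver it was at or under 0.25 CPM in 7 libraries and at 0.79 CPM, from 45 counts, in HS8. HS8 also had the highest sum of the mesothelium markers in liver, 7.98 CPM against 0.24 to 6.76 CPM in the other libraries. Its part in the Wt1 value was not tested.

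Emcn (chr3:137341067-137432185, plus strand) encodes endomucin, a surface glycoprotein of capillary and venous endothelium. In kidney it was at 33.5, 64.4 and 70.7 CPM in the normal diet libraries and 52.9, 63.1 and 54.0 CPM with high salt. Normal diet library 1 was again the lowest, and the other normal diet libraries the highest. Liver values were 0.83 to 2.36 CPM. Ehd3 (chr17:73804134-73832094, plus strand) encodes a membrane-trafficking ATPase of glomerular endothelium. It went the other way among normal diet kidney libraries, at 16.6, 12.2 and 9.68 CPM, and was at 17.6, 13.3 and 16.2 CPM on high salt. In liver Ehd3 was at 16.2, 17.1, 55.3 and 26.2 CPM on the normal diet and at 54.6, 53.6, 24.5 and 33.0 CPM in HS5 to HS8, so 6 of 8 liver libraries exceeded every kidney library.

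**Figure D2:**
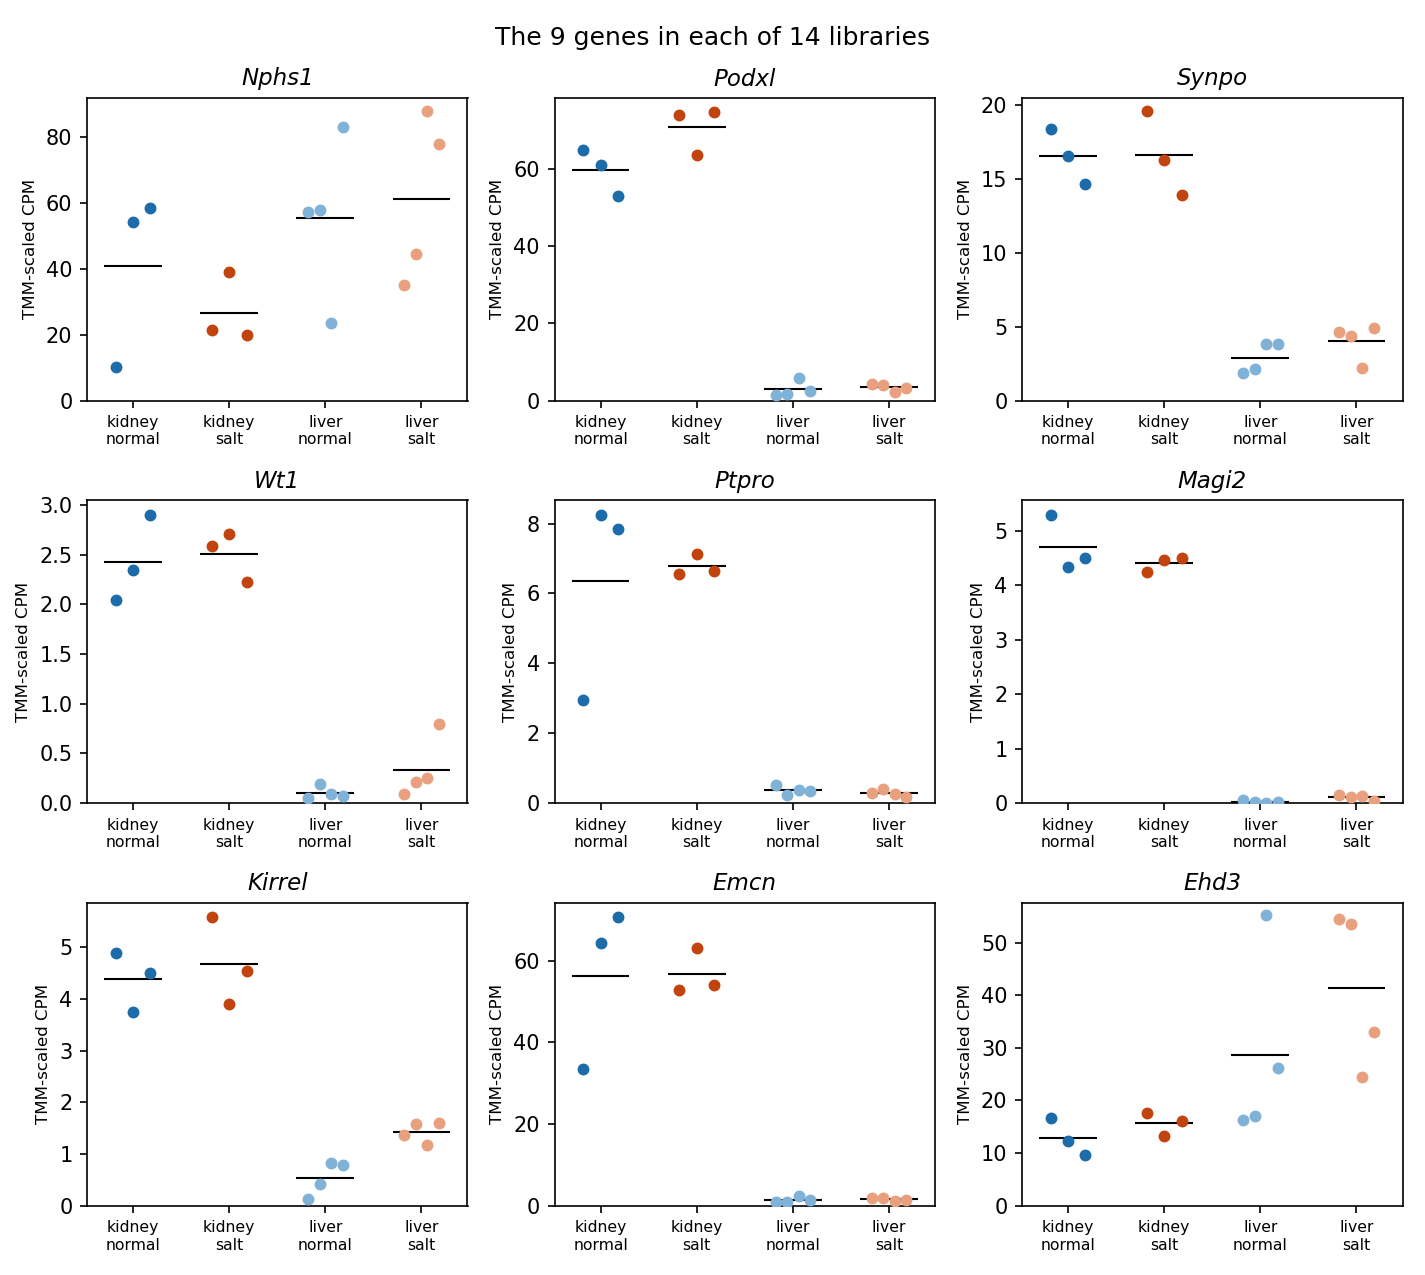
TMM-scaled CPM of each of the 9 genes (1 panel per gene, linear axis from 0) in the 4 groups, 1 point per library with a bar at the group mean. Nphs1 and Ehd3 are as high or higher in liver than in kidney, and the other 7 genes are higher in every kidney library than in any liver library, each tissue on its own scaling.

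Per kilobase of the longest coding transcript, the kidney order over 6 libraries was Emcn at 21.8 ± 5.06 CPM per kilobase (SD, n = 6), Podxl at 12.1 ± 1.53, Nphs1 at 7.34 ± 4.29, Ehd3 at 3.90 ± 0.83 and Synpo at 3.20 ± 0.42. Ptpro followed at 1.29 ± 0.37, Wt1 at 0.80 ± 0.10, Magi2 at 0.69 ± 0.06 and Kirrel at 0.62 ± 0.09. Of the neighbours in this order, Synpo and Ptpro were the only pair whose libraries did not overlap.

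Whether glomerular content differed between kidney libraries was asked of the summed CPM of the 9 genes. The sums were 158.9, 227.0 and 226.1 CPM in normal diet libraries 1 to 3 and 204.4, 213.6 and 196.6 CPM in high salt libraries 1 to 3. Normal diet library 1 was low, and the other 5 lay close together: the highest library was 1.43 times the lowest over all 6 and 1.16 times without normal diet library 1. The mean was 204.03 CPM with an SD of 39.1 on the normal diet (n = 3) and 204.8 CPM with an SD of 8.51 on high salt (n = 3), so the means differed by far less than the spread. Nphs1 took 6.48% to 25.9% of the sum. Without it the sums were 148.6, 172.9 and 167.6 CPM in the normal diet libraries and 183.1, 174.6 and 176.7 CPM with high salt, and the highest library was 1.23 times the lowest. All 3 high salt sums then lay above the 3 normal diet sums, at 178.1 ± 4.39 against 163.1 ± 12.8 CPM. Of all single genes tested in kidney, 6.92% had diets without overlap. The 6 podocyte genes without Nphs1 summed to 98.6, 96.3 and 87.3 CPM in the normal diet libraries and 112.5, 98.2 and 106.6 CPM with high salt, where the diets overlapped. Normal diet library 1 was not the lowest in this sum. No test was run on sums of genes chosen with results known.

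**Figure D3:**
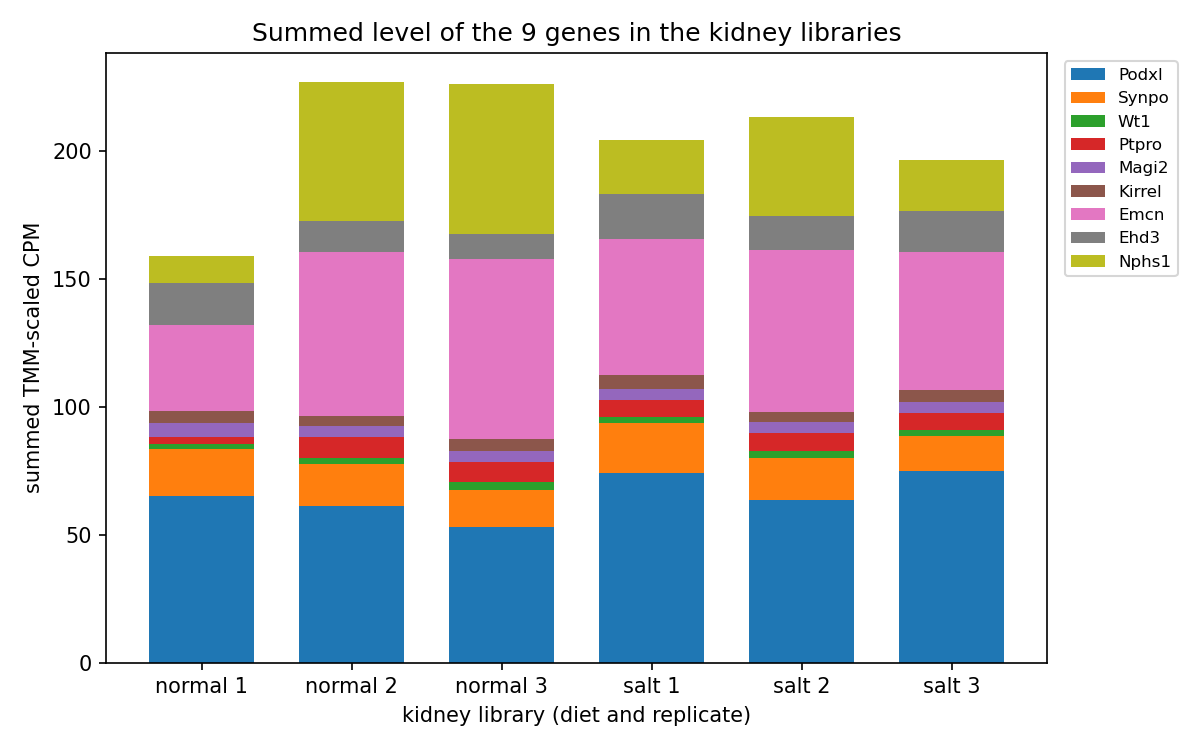
Summed TMM-scaled CPM of the 9 genes in each kidney library, stacked by gene (bars start at 0). The low bar of normal diet library 1, 158.9 CPM, comes with small Nphs1 and Emcn segments and a Podxl segment of 65.0 CPM that is within the range of the other libraries.

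Before any allowance for transcript length and GC content, the 9 genes did not move together across the kidney libraries. In normal diet library 1 Nphs1 lay at -1.43, Ptpro at -0.97, Emcn at -0.71 and Wt1 at -0.21 on the log2 scale from their kidney mean, while Ehd3 was at 0.24, Magi2 at 0.20, Synpo at 0.16, Kirrel at 0.11 and Podxl at 0.00. The median of the 9 deviations was between -0.06 and 0.06 in each of the 6 libraries. Of the 36 pairs of the 9 genes, 15 had a positive Pearson correlation over the 6 libraries, 9 exceeded 0.5 and 12 were under -0.5. Each gene's correlation with the mean of the other 8 was between -0.86 for Magi2 and 0.11 for Wt1. Set against genes of like length and GC content, Emcn in normal diet library 1 was at -0.43 in place of -0.71 and Ehd3 at 0.04 in place of 0.24, while Ptpro moved to -1.25 and Nphs1 to -1.82. Wt1 was then at -0.38, Kirrel at -0.36, Podxl at -0.34, Synpo at -0.30 and Magi2 at -0.19. Ehd3 alone was thus not negative there, so the split of signs in that library was not kept. The cause was not tested.

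**Figure D4:**
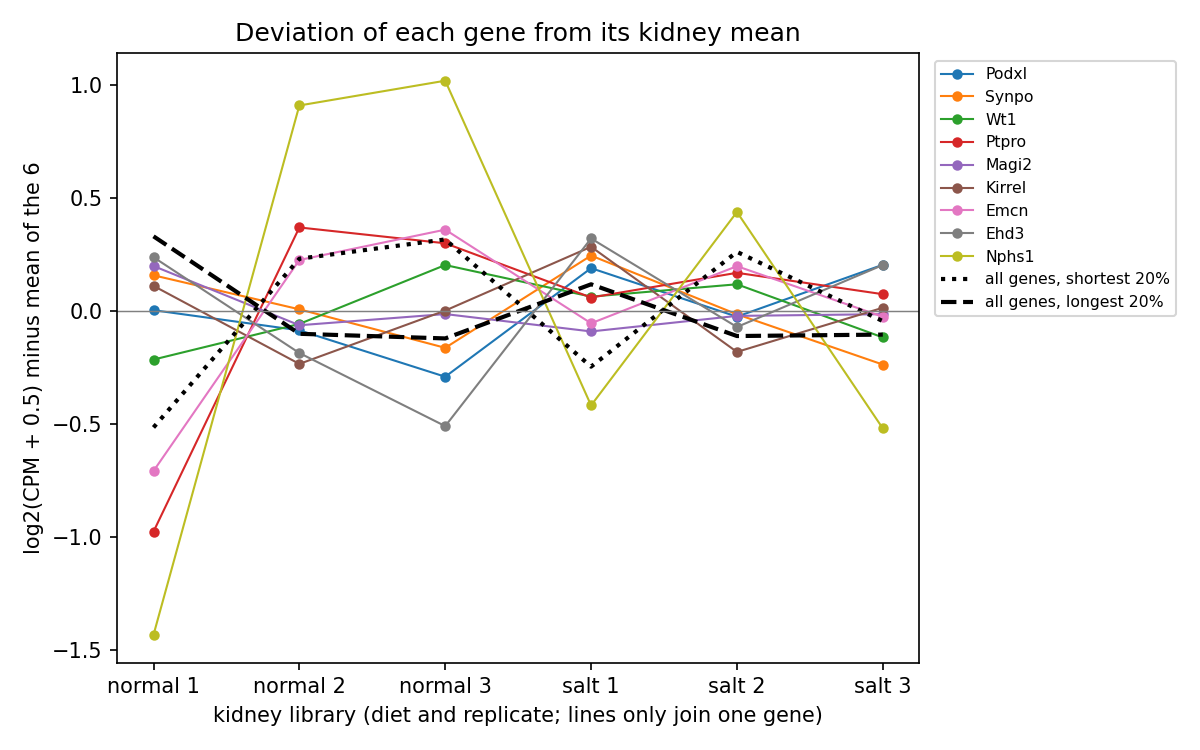
Deviation of log2(CPM + 0.5) of each gene from its mean over the 6 kidney libraries, with the median deviation of all genes with the shortest (dotted) and longest (dashed) 20% of transcripts. In normal diet library 1 Nphs1, Ptpro and Emcn lie between -1.43 and -0.71 while Ehd3, Magi2, Synpo and Kirrel lie between 0.11 and 0.24.

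Ranked by Pearson correlation with the mean standardised level of the 9 genes over the 6 kidney libraries, among 9872 genes with a mean of at least 5 CPM, the 10 nearest genes were Gm10241 at 0.97, Ptrhd1, Ddx20, Efnb2, H2-Q4, Ifi203, Ddx59, Tmem30b, Cers4 and Nrep at 0.90. None of them is on the lists of glomerular genes. With Nphs1 left out of the mean, the nearest was Elovl6 at 0.99, and Efnb2 and Ifi203 were the genes in both sets of 10. With 6 libraries and 9872 genes such values are descriptions.

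The highest kidney library was 1.30 to 1.45 times the lowest in the other 4 glomerular lists, against 1.43 times for the 9 genes. The 27 other podocyte genes in the kidney table, led by the adaptor gene Cd2ap, summed to 810.0, 683.2 and 621.0 CPM in the normal diet libraries and 751.0, 638.8 and 659.4 CPM with high salt, so normal diet library 1 had the highest sum. Genes of the glomerular basement membrane, led by Itgb1, an integrin subunit of many cell types, also peaked there, at 686.8 CPM against 472.6 to 575.1 CPM. The endothelial list was lowest there, at 203.0 CPM against 231.8 to 266.5 CPM. Its 3 high salt sums, 235.2 to 266.5 CPM, all lay above the 3 normal diet sums, 203.0 to 233.1 CPM, as did the sums of the 9 genes without Nphs1. Distal convoluted tubule genes went the other way, at 437.9 to 570.4 CPM with high salt and 652.4 to 704.0 CPM on the normal diet. The low sums of urothelium and cardiac muscle genes also had diets without overlap, as did 6.92% of all genes tested in kidney. No test was run on these sums. Medulla genes were at 70.7, 70.0 and 80.5 CPM on the normal diet and at 109.6, 75.7 and 134.0 CPM in high salt libraries 1 to 3. The mesangial and juxtaglomerular list ran from 203.4 to 265.0 CPM. Proximal tubule genes other than Kap, an androgen-regulated transcript that made up 85.2% of that list, summed to 6074 to 8250 CPM, immune genes to 79.7 to 198.7 CPM and red blood cell genes to 350.2 to 1551 CPM. The lowest immune and red blood cell sums were in normal diet library 1 and the highest immune sum in high salt library 3. Their part in the levels of the 9 genes was not tested.

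In kidney, high salt against normal diet gave no call among the 9 genes. All 9 were tested in edgeR's quasi-likelihood fit and 0 had a Benjamini-Hochberg adjusted p-value under 0.05, where 0.0% of the 15847 genes tested did. Unadjusted p-values under 0.05 were found for 0 of the 9 against 2.01% of all genes, and 0 of the 9 had diets without overlap against 6.92%. Log2 fold changes ran from -0.62 (SE 0.58) for Nphs1 to 0.29 (SE 0.25) for Ehd3, with a median of 0.04 against -0.02 over all genes. Podxl was at 0.25 (SE 0.19). All 9 had an adjusted p of 1.00 (edgeR). DESeq2 called 11 genes in kidney and 0 of the 9. Without normal diet library 1, the fold change of Nphs1 became -1.08 (adjusted p = 0.204, edgeR), that of Ehd3 0.52 (adjusted p = 0.281) and that of Emcn -0.25 in place of 0.01 (adjusted p = 0.477). Ptpro turned from 0.09 to -0.25 (adjusted p = 0.524) and Magi2 moved from -0.10 to 0.00 (adjusted p = 0.995). Other removals made the changes smaller: without normal diet library 3, Nphs1 was at -0.27 and Ehd3 at 0.12, and without library 2 Nphs1 was at -0.37. In simulated kidney counts the test recovered 160 of 200 genes given a log2 change of 2, so smaller changes may be missed.

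Other glomerular genes gave no call in kidney either. Of the other podocyte list 25 genes were tested, with a median log2 fold change of 0.02, including Cd2ap at -0.20 (SE 0.18) and Actn4, an actin crosslinker, at 0.14 (SE 0.32). The 10 basement membrane genes had a median of -0.08, with Itgb1 at -0.05 (SE 0.18) and Col4a3, a collagen chain of the mature membrane, at -0.11 (SE 0.40). The 12 endothelial genes tested had a median of 0.16, with the VEGF receptor genes Kdr at 0.12 (SE 0.27) and Flt1 at 0.12 (SE 0.23). The 9 mesangial and juxtaglomerular genes had a median of -0.02, with the pericyte gene Rgs5 at -0.14 (SE 0.21) and the smooth muscle gene Tagln at -0.26 (SE 0.33). Unadjusted p-values under 0.05 were found for 3 of the 56 genes tested on these 4 lists (5.36%, against 2.01% of all genes): the endothelial genes Cdh5 at 0.50 (SE 0.20) and Plvap at 0.60 (SE 0.20), and the renin gene Ren1 of juxtaglomerular cells at -0.78 (SE 0.21), all with an adjusted p of 1.00 (edgeR). The medians turned on normal diet library 1. Without it they were 0.19 (other podocyte), 0.27 (basement membrane), 0.24 (endothelial) and 0.04 (mesangial and juxtaglomerular), against 0.02 over all genes. No gene of these lists was called in that fit. There 3 of 25, 2 of 10, 2 of 12 and 2 of 9 had an unadjusted p-value under 0.05 (edgeR), against 16.3% of all genes.

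In liver, 7 of the 9 genes passed the filter on low counts (Wt1 and Magi2 did not) and 0 were called, where 1.0% of the 15130 genes tested were. Kirrel was the 1 gene of the 7 with an unadjusted p under 0.05, a mark that 21.2% of all genes met, and the 1 without overlap between diets, against 12.5% of all genes. Its log2 fold change was 1.42 (SE 0.48, adjusted p = 0.155, edgeR), from 0.53 ± 0.33 CPM on the normal diet to 1.42 ± 0.20 CPM on high salt (SD, n = 4 each). With DESeq2 Kirrel was called (log2 fold change 1.42, adjusted p = 0.0409), in a fit that called 1122 genes against 152 in edgeR. With offsets for transcript length and GC content it was 1.06 (adjusted p = 0.165, edgeR). The other 6 ran from -0.38 (SE 0.39) for Ptpro to 0.53 (SE 0.41) for Ehd3, with adjusted p-values of at least 0.425. These changes turned on single normal diet libraries. Without library 1, Ehd3 was at 0.33, Podxl at 0.04 in place of 0.25 and Emcn at 0.03 in place of 0.21. Without library 3 they were larger, at 1.05 for Ehd3 (adjusted p = 0.0795, edgeR), 0.84 for Podxl and 0.63 for Emcn. Without libraries 1 and 2 together, which stood apart by transcript length, Kirrel was at 0.82 (adjusted p = 0.204, edgeR), Ehd3 at 0.02, Podxl at -0.28 and Emcn at -0.24. That fit was added after seeing the data. Medians of the other lists were 0.66 over 17 other podocyte genes, 0.55 over 10 basement membrane genes, 0.54 over 11 endothelial genes and 0.22 over 7 mesangial and juxtaglomerular genes, against -0.02 over all genes, and 0 of these genes were called in edgeR. Unadjusted p-values under 0.05 were found for 9 of the 17, 4 of the 10, 1 of the 11 and 1 of the 7. Together these were 15 of 45 (33.3%), against 21.2% of all genes. The same 2 libraries moved with these medians: endothelial genes summed to 67.5 and 63.5 CPM in normal diet libraries 1 and 2 and to 89.8 to 148.4 CPM in the other 6, and mitochondrial transcripts took 2.30% and 2.06% there against 11.3% to 29.6%. Without both libraries the medians were 0.41, 0.19, 0.11 and -0.01, with 1 gene called, and with the length and GC offsets they were 0.37, 0.05, 0.36 and 0.30. DESeq2, with 1122 calls over all genes, called 5 of 17 other podocyte, 3 of 10 basement membrane, 0 of 11 endothelial and 1 of 7 mesangial and juxtaglomerular genes. Without normal diet library 3 edgeR called 2 of 17, 2 of 10, 2 of 12 and 0 of 7. Unadjusted p-values under 0.05 were found for 23.4% of all genes with DESeq2 and 29.0% without library 3, so these counts are not read as particular to the lists.

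Liver levels of Ehd3, Podxl and Emcn ran beside those of sinusoidal endothelium, the fenestrated capillary lining of the liver. That marker list summed to 67.5, 68.1, 171.0 and 126.9 CPM in normal diet libraries 1 to 4 and to 121.9, 120.3, 86.1 and 116.6 CPM in HS5 to HS8. Over the 8 liver libraries its Pearson correlation on the log2 scale was 0.86 with Ehd3 (Spearman 0.86), 0.92 with Podxl (0.86) and 0.92 with Emcn (0.83). The libraries lowest in all 4 were normal diet 1 and 2, the ones that also stood apart by transcript length. The part of either in these levels was not tested.

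Between tissues on the normal diet, 8 of the 9 genes differed, where 65.1% of the 16633 genes tested did. Higher in kidney were 7 of the 9 against 32.2% of all genes. This comparison uses 1 scaling over both tissues, so its CPM values differ from those above. Wt1 and Magi2 are among the 7 but entered the test through their kidney counts alone, so they had to differ, and the count of 7 is no support for a difference of the set. Magi2 was at 3.84 ± 0.41 CPM in kidney (SD, n = 3) and 0.030 ± 0.024 CPM in liver (SD, n = 4), where normal diet libraries held 0 to 2 counts, and Wt1 at 1.98 ± 0.36 and 0.12 ± 0.08 CPM. Of the genes also tested in liver, Emcn differed by 4.89 on the log2 scale (SE 0.35, adjusted p = 1.42e-08, edgeR), Podxl by 3.86 (SE 0.38), Ptpro by 3.56 (SE 0.40), Kirrel by 2.52 (SE 0.41) and Synpo by 1.99 (SE 0.29). Ehd3 was lower in kidney, at 10.5 ± 2.82 CPM against 33.6 ± 20.5 CPM in liver, a log2 fold change of -1.68 (SE 0.40, adjusted p = 0.00192, edgeR), although the lowest liver library was within the range of kidney libraries on the separate scales. Nphs1 was at 33.4 ± 21.8 CPM in kidney and 65.7 ± 28.0 CPM in liver, a log2 fold change of -0.97 (SE 0.53, adjusted p = 0.116, edgeR). Without normal diet liver library 3 Nphs1 was called lower in kidney, at -1.23 (adjusted p = 0.0477, edgeR). Under a filter of 10 counts in every library 5 of the 9 were tested and 4 called.

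**Figure D5:**
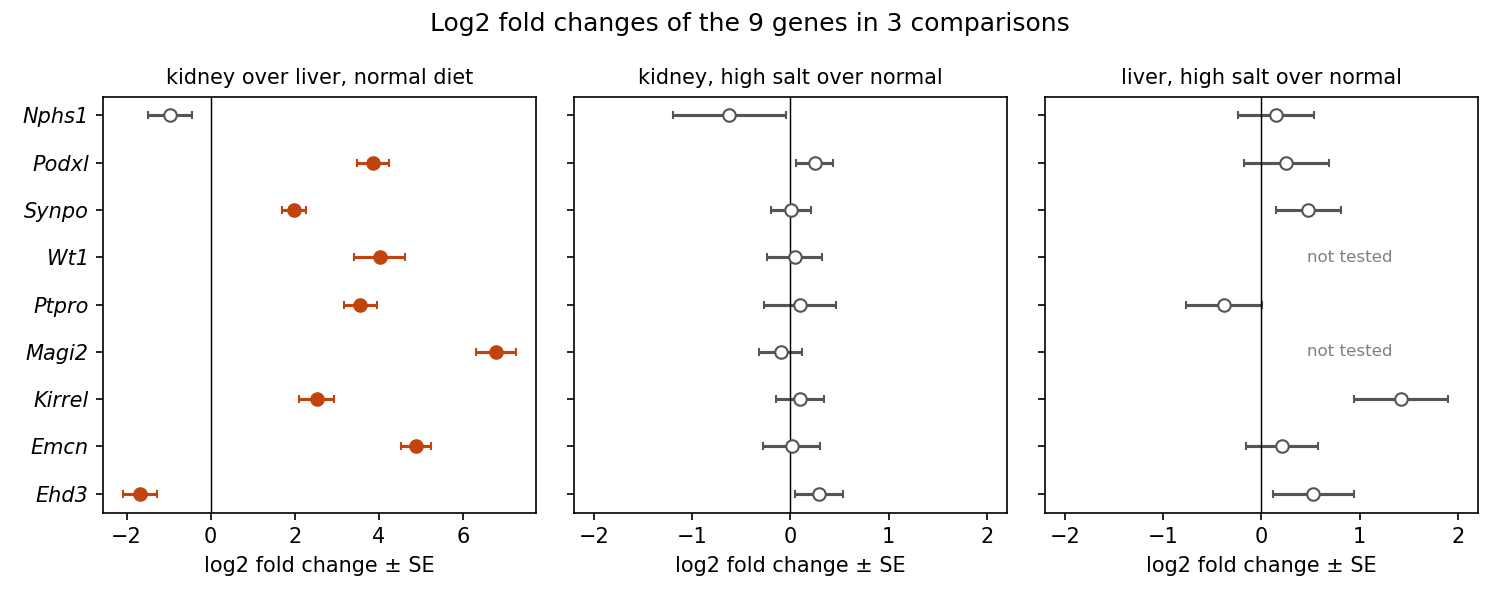
Log2 fold change with its standard error for each gene, kidney over liver on the normal diet (left), and high salt over normal diet in kidney (centre) and liver (right). Filled points have an edgeR adjusted p-value under 0.05: these are 7 genes at 1.99 to 6.78 (Wt1 and Magi2 among them, which passed the filter through kidney alone) and Ehd3 at -1.68 between tissues, and 0 genes between diets.

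The other glomerular lists split in the same comparison, where 65.1% of all genes tested differed and 32.2% were higher in kidney. Of 21 other podocyte genes tested, 15 were higher in kidney (Cd2ap, Tcf21, Cdkn1c, Clic5, Arhgap24, Dach1, Thsd7a, Npnt, Robo2, Sema3g, Plekhh2, Nes, Pdpn, Bmp7 and Tjp1), with log2 fold changes of up to 8.35 for Npnt, a matrix protein. Plce1, at -1.49 (SE 0.31), and Myo1e, at -1.36 (SE 0.39), were lower. Of 10 basement membrane genes 8 were higher, from 0.85 for Itga3 to 9.08 for Col4a4, with Col4a3, Col4a5, Lamb2, Lama5, Lamc1 and Nid1 between. Of 13 endothelial genes 5 were higher (Kdr, Flt1, Pecam1, Tek and Plat) and 3 lower (Egfl7, Tbx3 and Tie1). Of 9 mesangial and juxtaglomerular genes 6 were higher (Pdgfrb, Itga8, Gata3, Rgs5, Tagln and Acta2), and Agtr1a, the angiotensin receptor gene, was lower at -0.87 (SE 0.17). The median over the 21 podocyte genes was 2.53. Some of these genes entered the test through kidney counts alone, as Wt1 and Magi2 did, and had to differ. In liver only 17 other podocyte, 11 endothelial and 7 mesangial and juxtaglomerular genes passed the filter. Npnt, Dach1, Sema3g and Gata3 were at a mean of 0.14, 0.039, 0.098 and 0.048 CPM in liver (n = 8, liver scaling). The counts for those lists and the podocyte median are thus no support for a difference of the lists.

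The difference between the diet effects of kidney and liver was tested as an interaction. It called 0 of the 9 genes, where 0.0% of 16633 genes were called, and DESeq2 called 145 genes and 0 of the 9. Unadjusted p-values under 0.05 were found for 2 of the 9 against 10.1% of all genes. They were Magi2, at -1.93 (SE 0.67, adjusted p = 0.373, edgeR), which rests on 0 to 8 liver counts, and Kirrel, at -1.35 (SE 0.57, adjusted p = 0.460, edgeR). The other 7 ran from -1.68 (SE 0.82) for Wt1 to 0.47 (SE 0.55) for Ptpro. An effect of diet on the 9 genes that differs between kidney and liver was thus not detectable here. On the other glomerular lists edgeR called 0 genes. There 11 of 53 (20.8%) had an unadjusted p-value under 0.05, against 10.1% of all genes. Their medians were -0.50 (other podocyte), -0.52 (basement membrane), -0.34 (endothelial) and -0.07 (mesangial and juxtaglomerular), against -0.02 over all genes. With the length and GC offsets they were -0.16, -0.14, -0.23 and -0.14, against 0.05.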

How the data were processed

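RNA of kidney and liver was sequenced from SMARTer mRNA libraries of total RNA, per the labels' protocols. The submitters' processing notes name STAR 2.5.3a, Partek 7.0, DESeq2 and the mm10 genome, without giving the role or order of each. The authors deposited expected counts per gene, which need not be whole numbers, and a normalized signal per gene on a linear scale whose method is not given in the sources used here. The strand setting of the counting is not given in the sources used here either. Groups follow the tissue and treatment labels.

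Expected counts were rounded and tested with edgeR 4.0.16 (R 4.3.3): quasi-likelihood fit, TMM scaling, filterByExpr, diet as the only term within a tissue, and 1 fit of 4 groups for the tissue difference and the interaction. Adjusted p-values (Benjamini-Hochberg, over all genes tested) under 0.05 were called. CPM uses TMM library sizes. Loci, transcript lengths and the shared sequence are from GENCODE M21 (GRCm38), whose gene starts equal those of the kidney table for 99.4% of named genes. In the files the gene end is written 1 base further.

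Named were all 9 genes, list genes past the threshold, the 2 genes of each glomerular list with the highest kidney CPM, and the 10 genes most like the mean of the 9. Some list genes are not reported here. Ren1, Cdh5 and Plvap were chosen after their values were seen. The 9 genes and the lists were chosen with earlier results of these data known. Exact counts of 0 limit a gene only to under 3 counts, and, with no molecular identifiers, reads may repeat a molecule. With 3 libraries against 3 the replicate spread, and not depth, limits most genes.

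Settings varied were the scaling (RLE, upper quartile), the tool (DESeq2 1.42.0), limma 3.58.1 on log2 of the deposited normalized signal plus 1, no filter and a filter of 10 counts in every library, removal of mitochondrial genes, all 14 libraries in 1 fit, the replicate block in kidney, the 7 normal diet libraries alone, HS5 and HS6 summed, and leaving out each library. HS5 and HS6 were close in some values, with endothelial sums of 146.5 and 146.1 CPM and sinusoidal endothelium sums of 121.9 and 120.3 CPM. Nphs1, at 35.0 and 44.4 CPM, was less so. The labels do not say whether they came from separate animals, so the 4 high salt liver libraries may not be independent. Offsets for length and GC content, sums without Nphs1 and without a library, and liver without normal diet libraries 1 and 2, were added after seeing the data. The fits were tested on simulated data. Of 200 genes given a log2 change of 2, the test found 165 in liver over 14887 genes (7 false calls), 160 in kidney over 15451 (14 false), 156 between tissues over 15942 (5 false) and 83 for the interaction over 16363 (5 false).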

Additional observations from a re-analysis of the deposited data

Results flagged for a closer look

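In 22 sets of 4 liver libraries (each gene of the 9, their sum and the sinusoidal endothelium list, in each diet) 1 library was far from the other 3. This was HS7, in which the sinusoidal endothelium markers summed to 86.1 CPM, against 116.6 to 121.9 CPM in the other high salt liver libraries. Ehd3 was also lowest there among high salt libraries, at 24.5 CPM. Chance flags about 1 in 20 such sets. Kidney groups of 3 libraries were not tested in this way.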

How the results depend on the processing

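Between tissues the 7 genes higher in kidney and Ehd3 kept their direction in every alternative in which they were tested, and stayed called. The count called was 8 to 9 without single libraries and 4 where 10 counts were required in every library, which leaves fewer genes tested. Upper quartile scaling moved the median tissue difference of all genes to 0.28 and the length and GC offsets moved it to -0.15. For the diet, 0 of the 9 were called in kidney under every alternative, and in liver 1 (Kirrel) by DESeq2 only. Calls over all genes in kidney were 0, but 11 with DESeq2. Those in liver were 152, and 1122 with DESeq2, 98 with limma, 260 with all 14 libraries in 1 fit, 12 with HS5 and HS6 summed, 52 without normal diet libraries 1 and 2, and 12 to 765 without single libraries. Those of the interaction were 0, and 145 with DESeq2, 2 with 10 counts in every library, 8 with the offsets and 0 to 7 without single libraries.

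The ratio of the highest to the lowest summed kidney level, 1.43, became 1.62 with plain CPM, 1.28 with mitochondrial genes removed, 1.61 for Emcn and Ehd3 alone, 1.23 without Nphs1, 1.29 for podocyte genes without Nphs1, and 1.16 to 1.43 without single libraries.

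Uncalled fold changes near 0 changed sign. In kidney Synpo was at -0.0274 with the offsets, -0.0217 with limma and -0.0026 with the replicate block, and Wt1 at -0.0118 with the offsets. Liver Nphs1 was at -0.19 with the offsets, liver Podxl at -0.28 and Emcn at -0.24 without normal diet libraries 1 and 2, and the interaction of Podxl at 0.021 with RLE, 0.0238 with DESeq2, 0.21 with the offsets and 0.0465 with HS5 and HS6 summed. Without single libraries, kidney Synpo ran from -0.13 to 0.12, Wt1 from -0.0701 to 0.19, Ptpro from -0.25 to 0.32, Kirrel from -0.0484 to 0.21 and Emcn from -0.25 to 0.21, liver Nphs1 from -0.11 to 0.40, and the interactions of Podxl from -0.61 to 0.16 and of Emcn from -0.62 to 0.0096. The cause was not tested.

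Same-numbered kidney libraries deviated from their group means with correlations of 0.41, 0.37 and -0.09, so the numbers are not taken as pairs. The replicate block called 0 genes. High salt liver columns carry no title number, so no paired analysis was possible in liver.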
